A study of Homo sapiens with 8 samples.

Results

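Ubiquitin conjugating and deubiquitinating enzymes were represented by 52 promoter peaks at 47 genes in the list of PML::RARA Cut&Run peaks from induced U937-PR9 cells. Members were chosen by gene symbol alone: symbols beginning with UBE2, symbols made of USP and digits with an optional last letter, and symbols beginning with OTUD. UBE2 symbols gave 24 peaks at 21 genes, USP symbols 25 peaks at 23 genes, and OTUD symbols 3 peaks at 3 genes. The members were 0.725% of the 7169 peaks that carried a gene label, and the remaining 7117 labelled peaks served as the comparison. The whole list held 15412 peaks. All 47 genes except UBE2Q2P1, a pseudogene of UBE2Q2, were protein-coding. The rule used no measured value.

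U937-PR9 derives from the monocytic U937 line and carries a PML::RARA transgene behind a zinc-inducible promoter, so the fusion was made here in a line that does not carry it natively. Cells received 100 µM ZnSO4, or sterile water in its place, for 5 h before nuclei were isolated for Cut&Run, in which an antibody-tethered nuclease releases the DNA around a bound protein. With 2 antibodies, against PML::RARA and against RARA, and 2 replicates of each, the cell line gave 8 libraries. The list examined is that of the anti-PML::RARA antibody after zinc, with a single value for each peak and none for each replicate. Whether that value comes from a single replicate or from both merged is not given in the sources used here. No replicate error and no test between conditions could therefore be given, and the read depth behind the values is unknown. Peaks measure binding and not expression, so the labelled cell type could not be checked against marker genes.

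Ubiquitin is activated by an E1 enzyme, passed to an E2 conjugating enzyme of the UBE2 family, and joined to a target with the help of an E3 ligase. The USP and OTUD proteins are cysteine proteases that remove ubiquitin from targets or trim its chains, and they act in chromatin, DNA repair, signalling, endosomal sorting and protein turnover. In acute promyelocytic leukemia the pathway is known for its part in treatment, since arsenic leads to SUMO and then ubiquitin conjugation on the PML moiety of PML::RARA and to its degradation.

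The sequences at the apex, the stretch of each peak with the largest signal, are shown for the 7 highest member peaks and for the 3 others with an AGGTCA hexamer, the core element of nuclear receptors such as RARA, in the same short window. They are hg19 (GRCh37) reference sequence, read 5′ to 3′ on the strand of the gene, and lie outside annotated exons. Capitals mark any match, on either strand, to GGGCGG (SP/KLF factors), CCAAT (NF-Y), GGAAGT (ETS factors such as PU.1), AGGTCA, TGACGTCA (CREB), TGANTCA (AP-1) or CACGTG (E box). The highest peaks gave USP3 at chr15:63795494-63795614 on the plus strand, and on the minus strand UBE2G1 at chr17:4270087-4270207, USP32 at chr17:58469592-58469699, USP37 at chr2:219433182-219433302, USP48 at chr1:22110121-22110241, OTUD5 at chrX:48815720-48815840 and UBE2S at chr19:55919366-55919486. The other windows with the hexamer were UBE2R2 at chr9:33816508-33816628 on the plus strand, and UBE2M at chr19:59070364-59070484 and UBE2J1 at chr6:90062482-90062602 on the minus strand.
USP3: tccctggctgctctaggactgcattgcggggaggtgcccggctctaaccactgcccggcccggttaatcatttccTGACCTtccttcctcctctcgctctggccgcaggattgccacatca
UBE2G1: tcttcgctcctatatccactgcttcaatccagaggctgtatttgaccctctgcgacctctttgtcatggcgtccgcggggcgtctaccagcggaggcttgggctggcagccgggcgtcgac
USP32: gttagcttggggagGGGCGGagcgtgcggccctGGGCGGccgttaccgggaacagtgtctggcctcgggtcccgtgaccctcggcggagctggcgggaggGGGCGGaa
USP37: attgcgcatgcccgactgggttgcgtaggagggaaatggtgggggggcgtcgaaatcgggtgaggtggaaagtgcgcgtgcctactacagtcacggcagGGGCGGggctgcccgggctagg
USP48: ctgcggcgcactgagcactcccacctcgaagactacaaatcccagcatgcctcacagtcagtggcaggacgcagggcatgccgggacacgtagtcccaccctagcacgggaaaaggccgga
OTUD5: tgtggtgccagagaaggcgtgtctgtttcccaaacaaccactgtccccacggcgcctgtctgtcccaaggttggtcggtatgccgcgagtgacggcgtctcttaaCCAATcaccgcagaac
UBE2S: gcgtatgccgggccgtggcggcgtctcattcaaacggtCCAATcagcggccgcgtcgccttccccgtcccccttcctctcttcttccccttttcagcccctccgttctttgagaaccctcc
UBE2R2: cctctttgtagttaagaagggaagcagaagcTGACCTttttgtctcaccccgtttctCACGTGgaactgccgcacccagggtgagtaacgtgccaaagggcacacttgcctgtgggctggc
UBE2M: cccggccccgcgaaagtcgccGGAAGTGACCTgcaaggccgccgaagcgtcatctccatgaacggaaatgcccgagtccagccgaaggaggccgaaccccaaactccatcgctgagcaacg
UBE2J1: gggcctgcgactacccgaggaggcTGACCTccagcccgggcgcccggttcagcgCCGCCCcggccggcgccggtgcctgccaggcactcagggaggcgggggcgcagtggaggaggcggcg

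Of the 7 highest peaks, the printed window of USP3 alone held the hexamer. It was written TGACCT on the gene strand and centred about 18 bp downstream of the apex. In UBE2M the TGACCT shared a base with a GGAAGT, so that both read as a single capital run. In UBE2R2 a CACGTG lay on the apex itself, with the TGACCT about 26 bp upstream of it. The printed windows of UBE2G1 and USP48 held none of the 7 motifs. Within 200 bp of the apex, UBE2G1 had 4 GGGCGG matches, and USP48 had GGGCGG, TGACGTCA and AGGTCA.

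Promoter peaks were found for 46 of the 95 protein-coding genes with these symbols in GENCODE, or 48.4% (Wilson 95% interval 38.6 to 58.3%, for the counting of genes only). Among all 20090 protein-coding genes the share was 30%. The UBE2 genes reached 54.1% (20 of 37), the USP genes 46.0% (23 of 50) and the OTUD genes 37.5% (3 of 8). With a peak counted wherever its apex lay within 1 kb of a gene's own start site, whatever its label, 55 of 95 genes had one (57.9%, 47.8 to 67.3%) against 39.3% of all protein-coding genes. The comparison was not matched for how strongly or broadly the genes are expressed, which was not analysed here.

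**Figure D1:**
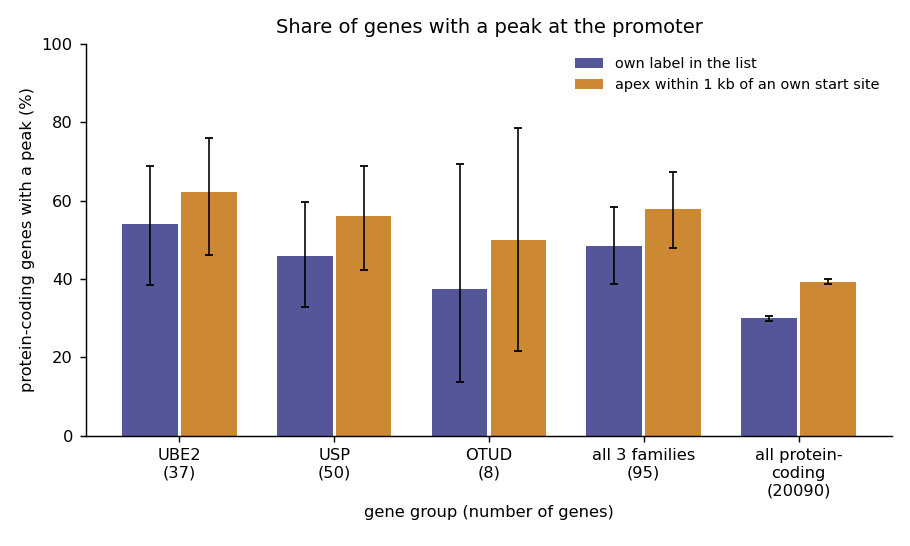
Share of protein-coding genes (vertical axis, percent) with a peak at the promoter in each family, in the 3 families together and among all protein-coding genes, by the list's own label or by an apex within 1 kb of an own start site. Bars are shares and lines are Wilson 95% intervals; the families together stood at 48.4% and 57.9%, against 30% and 39.3% of all protein-coding genes.

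An apex within 1 kb of the start without the gene's own label was seen for 10 of the 95 genes (10.5%), close to the 10.2% of all protein-coding genes. For 5 of them the peak carried the name of a neighbour: UBE2B (label CDKL3, height 30), UBE2D4 (URGCP, 20), USP20 (C9orf78, 21), USP35 (KCTD21, 35) and USP5 (CDCA3, 67). The USP5 peak, at chr12:6960117-6962452, had its apex 333 bp downstream of a USP5 start site and was higher than any of the 52 members and than 99.6% of all peaks. USP5 disassembles unanchored ubiquitin chains. For the other 5, OTUD6B, UBE2L5, USP15, USP2 and USP53, the peak had no label, with heights of 15 to 26. USP21 had an apex 2390 bp from its nearest start, and 6 genes had a peak only further off, within the gene or 10 kb of it. The remaining 32 genes (33.7%), 12 UBE2, 17 USP and 3 OTUD, had no peak within 10 kb of the gene, against 47.0% of all protein-coding genes. Among these were UBE2C, the chain-initiating E2 of the anaphase-promoting complex, and USP18, which removes the ubiquitin-like ISG15.

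Peak height, the largest signal inside a peak in the deposited units, had a median of 27 over the members (25th to 75th percentile 21 to 39, range 16 to 62). The comparison peaks had a median of 26 (20 to 35, range 13 to 86). The order-statistic 95% interval of the members' median was 24 to 31 and held the median of the comparison, so the heights were not set apart by their median. On the log2 scale the mean of the members was 0.06 above that of the other labelled peaks. The UBE2 peaks had a median height of 26, the USP peaks 29 and the OTUD peaks 31, with intervals for the UBE2 and USP medians of 21 to 31 and 23 to 40 that overlapped.

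**Figure D2:**
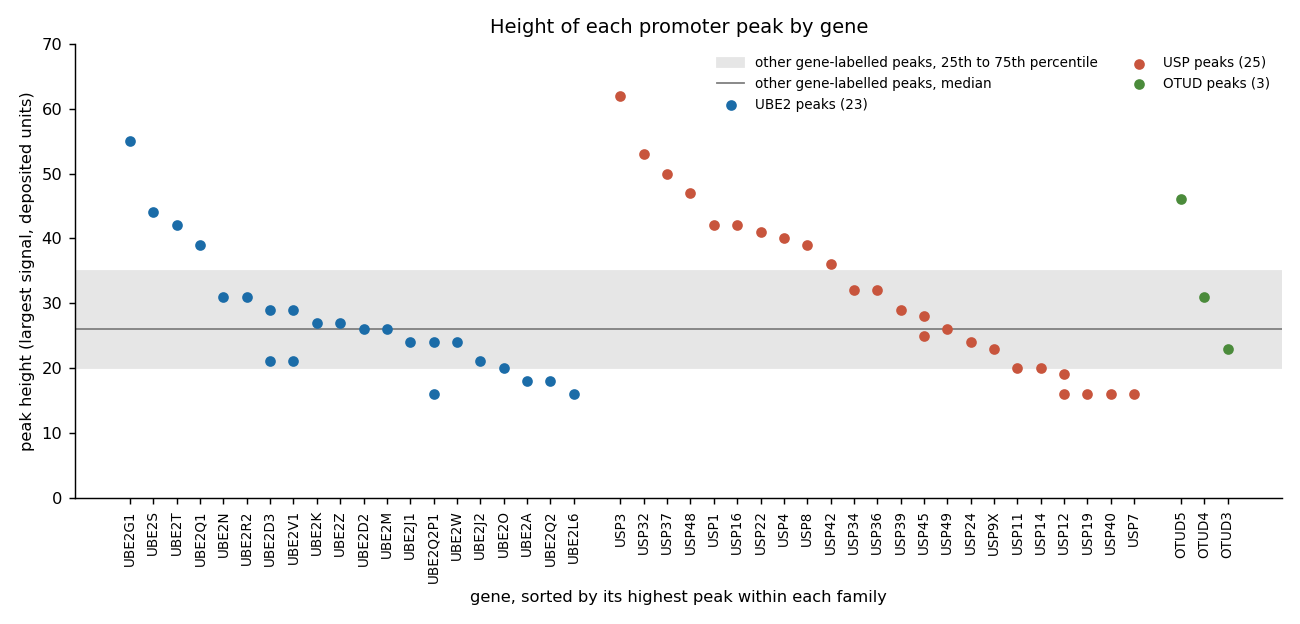
Height of 51 of the 52 member peaks (vertical axis, deposited signal units) by gene, sorted within UBE2, USP and OTUD; genes with several peaks have several points. The grey band is the 25th to 75th percentile of the other 7117 gene-labelled peaks, 20 to 35, and the line their median of 26; USP3 at 62 and UBE2G1 at 55 stand highest, and 6 points sit at 16.

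A height at or above the upper quartile of all labelled peaks, 35, was reached by 16 of 52 members (30.8%, 19.9 to 44.3%) against 25.5% of all labelled peaks. By family these were 10 of 25 USP peaks (40%, 23.4 to 59.3%), 5 of 24 UBE2 peaks (20.8%, 9.24 to 40.5%) and 1 of 3 OTUD peaks. At the lower end, 6 members had a height of 16 (UBE2L6, UBE2Q2P1, USP12, USP19, USP40 and USP7), or 11.5% against 6.01% of the other labelled peaks. In each case the share among the comparison peaks lay within the interval of the members. A height of 16 was near the floor of the list, with 0.130% of all peaks lower.

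The USP genes listed here as acting on histones included the highest member. USP3, which removes ubiquitin from histones, reached a height of 62 over 2920 bp and a total signal, the signal summed over the peak, of 61066 (chr15:63795146-63798065). It was the highest, the widest and the largest by total of the 52, and stood above 99% of labelled peaks by height and 97.3% by width. Its apex was 1156 bp upstream of the nearest USP3 start, the only member apex beyond 1 kb, and lay 272 bp upstream of the start of a lncRNA, ENSG00000276651, while the peak itself covered 9 USP3 start sites. USP16, a histone deubiquitinase, had a height of 42, and USP22, the deubiquitinase of the SAGA coactivator complex, 41 with a width of 2245 bp. USP49, which acts on histones too, had a height of 26. The 4 peaks had a median height of 41.5 (range 26 to 62), against 27 over all 52 members and 29 over the USP peaks. The other 4 genes of the group, USP21, USP27X, USP44 and USP51, had no labelled peak. The list was chosen with earlier results known and its peaks are few, so no trait of the group is drawn from this median.

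Other USP promoters were spread over the whole range. USP1, which with its cofactor WDR48 reverses ubiquitin marks in DNA repair, had a height of 42, whereas USP12, which binds the same cofactor, had 2 peaks of 19 and 16. In the group of endosomal, endoplasmic reticulum and mitochondrial enzymes, USP32 had a height of 53 (chr17:58468524-58470675), the endosomal sorting enzyme USP8 had 39, and USP19 had 16. The nuclear enzymes USP42, USP36 and USP7 had heights of 36, 32 and 16. USP7, which protects MDM2 and p53 from degradation, was thus among the lowest of the list. Of the enzymes listed under signalling, USP4 had 40, USP34 32, USP9X 23 and USP11 20. USP14, bound to the proteasome, had a height of 20, and USP39, a splicing factor without deubiquitinase activity, 29. USP37, a cell cycle enzyme, had a height of 50 and USP48 47. High and low peaks thus occurred together among the WDR48-binding, endosomal, nuclear and signalling enzymes, with few genes in each group.

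The UBE2 promoters were led by UBE2G1, an E2 that builds chains read by the proteasome, at a height of 55 and 2373 bp wide (chr17:4268309-4270681). UBE2R2 and UBE2K, which build chains of the same kind, had heights of 31 and 27. UBE2S, which extends chains on targets of the anaphase-promoting complex, had 44, and UBE2T, the E2 of the Fanconi anaemia pathway, had 42 in a peak of only 688 bp. The related UBE2A, a RAD6 homologue, had 18 in a peak of 1614 bp. The broadly acting UBE2D2 and UBE2D3 had heights of 26 and 29 in peaks of 1979 and 1961 bp, and UBE2N with its partner UBE2V1, which together make chains used in signalling, had 31 and 29.

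Among E2 enzymes that serve ubiquitin-like proteins, UBE2M, which conjugates NEDD8, had a height of 26 and UBE2L6, which conjugates ISG15, had 16. UBE2Z had 27. UBE2J2 and UBE2J1, both anchored in the endoplasmic reticulum membrane, had heights of 21 and 24, and the UBE2J2 peak was the widest of its family at 2717 bp. UBE2Q1 had 39, UBE2O 20 and UBE2Q2 18. UBE2Q2P1 is a near copy of UBE2Q2, so reads could be shared between them and the values of both are uncertain. Of the OTUD genes, OTUD5, which acts in p53 and interferon signalling, had 46, OTUD4 31 and OTUD3 23.

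Peak width had a median of 1159.5 bp over the members (758 to 1640, range 120 to 2920) and 1108 bp over the other labelled peaks (770 to 1538). The direction depended on the summary, since the mean log2 width of the members was 0.06 lower. UBE2 peaks had a median width of 1346.5 bp (interval 1060 to 1517) and USP peaks 1003 bp (725 to 1649). Total signal had a median of 12323.5 over the members (interval 8978 to 14809) and 10065 over the others, a value inside that interval. Its mean log2 was 0.07 higher in the members. Divided by width, the total signal had medians of 10.3 (interval 8.58 to 11.5) and 9.08, the second inside the interval of the first. The ratio of this mean signal to height was 0.384 for members and 0.347 for the others. A width in the upper quartile, at least 1539 bp, was seen in 15 of 52 members (28.8%, 18.3 to 42.3%) against 25% of all labelled peaks. Both height and width were in the upper quartile for 8 members (15.4%, 8.01 to 27.5%) against 11.6%. These 8 were 7 of the 25 USP peaks and 1 of the 24 UBE2 peaks, that of UBE2G1. Across peaks, height and width had a Spearman correlation of 0.444 in the 52 members and 0.447 in the other labelled peaks, given as a description of peaks from the same libraries.

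**Figure D3:**
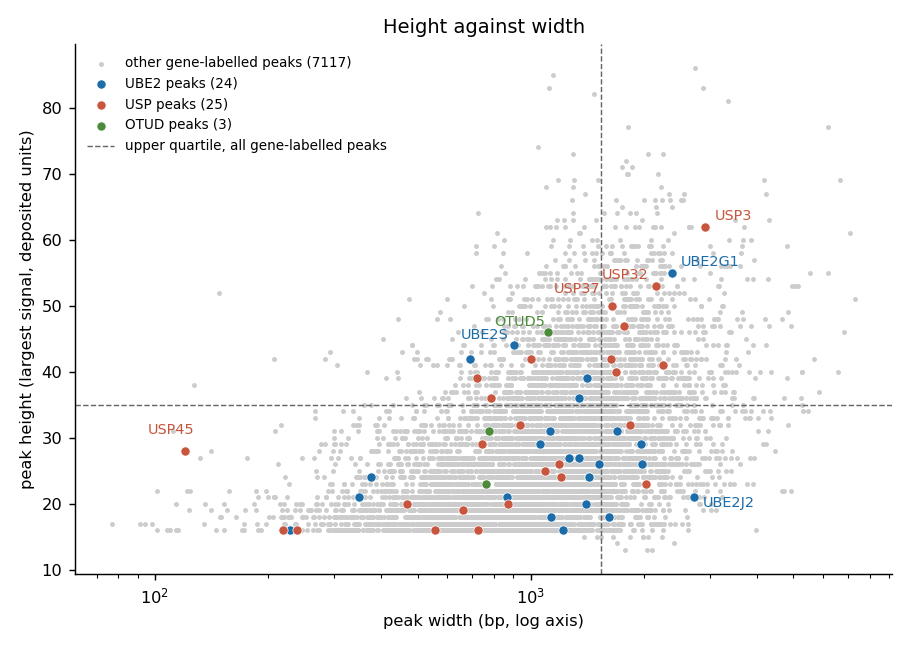
Height (vertical axis, deposited signal units) against width (horizontal axis, bp, log scale) for the 52 member peaks in colour by family and the other 7117 gene-labelled peaks in grey, with dashed lines at the upper quartiles of 35 and 1539 bp. USP3, UBE2G1, USP32 and USP37 are high and wide, UBE2J2 is wide at a height of 21, and a USP45 peak of 120 bp is the narrowest.

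More than 1 labelled peak was found at 5 of the 47 member genes (10.6%), against 8.42% of all 6546 labelled genes. The paired peaks of USP45 had apexes 466 bp apart, with heights of 25 and 28 and widths of 1095 and 120 bp. Those of USP12 were 653 bp apart and separated by a gap of 113 bp. The UBE2Q2P1 apexes were 847 bp apart, and those of UBE2V1 were 2774 bp apart at separate start sites, with heights of 29 and 21. The UBE2D3 apexes were 40966 bp apart. The second UBE2D3 peak, with a height of 21, lay at the start shared with CISD2, whose start was 122 bp from the apex.

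The apexes sat close to the start sites of their own genes. A label was given for an apex in the gene's promoter, so this closeness follows largely from the labelling. The same holds for the comparison peaks. The median distance was 107 bp over the members and 102 bp over the other labelled peaks with a gene in GENCODE. Within 100 bp there were 24 of 52 members (46.2%) against 49.6%, and within 1 kb 51 of 52 (98.1%, 89.9 to 99.7%) against 92.3%. The apex was upstream of the nearest own start for 37 members (71.2%) against 75.5%. For some members a start of another gene was nearer than an own start, as at OTUD5, UBE2M, UBE2W, UBE2Z, USP16 and USP34. There the label does not assign the binding to 1 gene. In the canonical transcript 42 apexes lay upstream, 5 in a 5′ UTR exon and 5 in intron 1. The peak covered a start site of its gene for 49 members (94.2%) against 89.1%, the exceptions being the narrower peaks of USP12, USP45 and UBE2Q2P1.

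**Figure D4:**
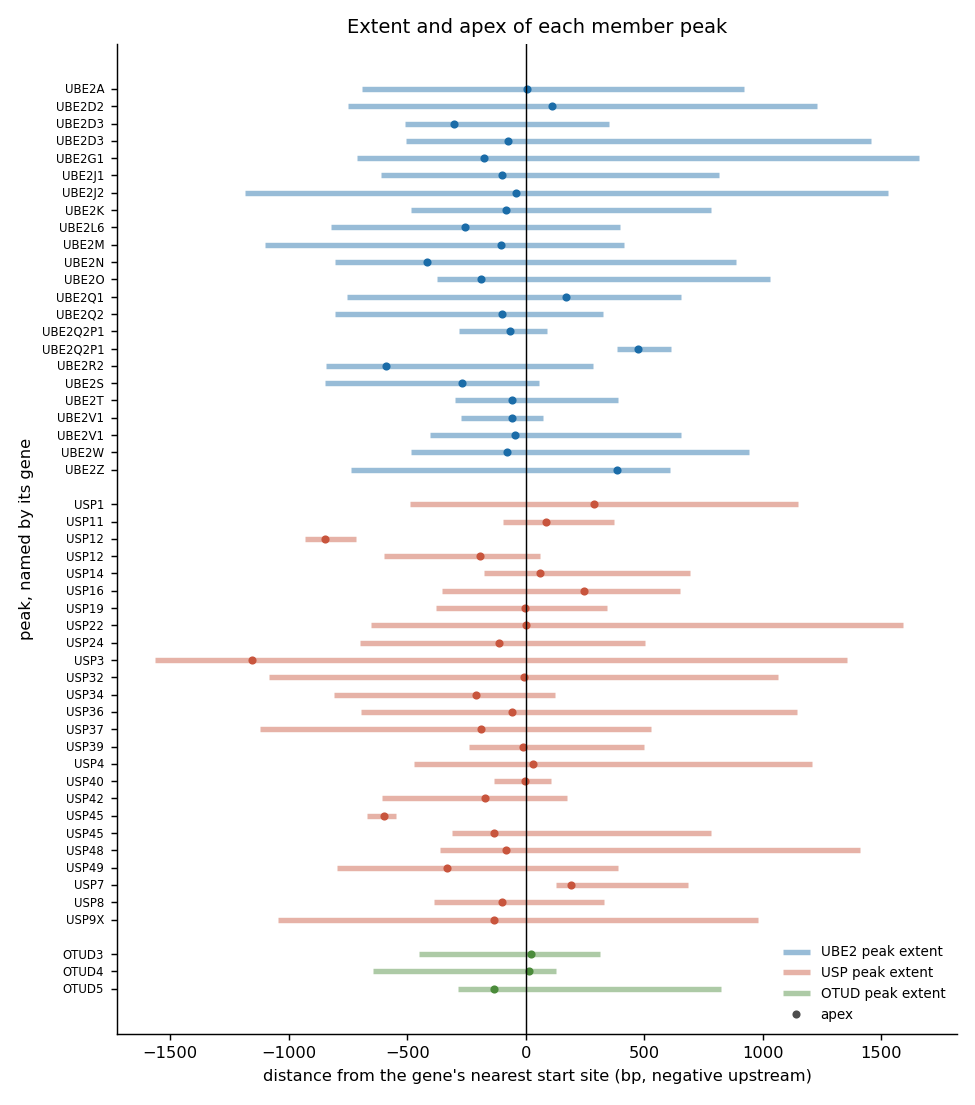
Extent (bars) and apex (points) of 51 of the 52 member peaks along the distance from the nearest start site of the labelled gene (horizontal axis, bp, negative upstream), in rows by gene and coloured by family. Most bars cross 0; the USP3 apex stands out at 1156 bp upstream, and the peaks run from 120 to 2920 bp in length.

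A gene starting in the opposite direction within 1 kb was found for 13 of 52 member peaks (25%, 15.2 to 38.2%). Among the other labelled peaks the share was 30.2%. Both peaks of USP12 had the same such neighbour, as did both of UBE2Q2P1, so the count is of peaks and not of separate promoters. For protein-coding neighbours the count was 4 (7.69%, 3.03 to 18.2%) against 14.8%. These were UBE2D3 with CISD2, UBE2O with AANAT, USP32 with CHCT1 and USP37 with CNOT9. At USP37 the apex was 42 bp from the CNOT9 start and 187 bp from its own, and at UBE2O it was 9 bp from the AANAT start and 190 bp from its own. Binding at these promoters could not be assigned to either gene of the pair.

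Within 200 bp of the apex the median GC content was 66.2% against 64.3% in the other labelled windows, and the ratio of observed to expected CpG was 0.869 against 0.807. The SP/KLF box GGGCGG, searched on both strands like all motifs here, was present in 45 of 52 windows (86.5%, 74.7 to 93.3%) against 76.1%. CCAAT was present in 15 (28.8%, 18.3 to 42.3%) against 44.3%, and GGAAGT in 13 (25%, 15.2 to 38.2%) against 36.8%. TGANTCA was present in 0 of 52 windows, with an upper Wilson limit of 6.88%, against 7.46%. TGACGTCA was present in 3 (5.77%) against 3.11% and CACGTG in 6 (11.5%) against 12.6%. The AGGTCA hexamer was found in 9 windows (17.3%, 9.38 to 29.7%) against 16.6%, and no member held more than 1. The share of the other windows lay outside the interval of the members for CCAAT and TGANTCA and inside it for the other 5 motifs, with no test made. Within 100 bp of the apex it lay inside the interval for both, at 33.5% for CCAAT (members 12.2 to 34.0%) and 4.76% for TGANTCA (upper limit of the members 6.88%). A match describes the letters in the window and not a bound site.

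**Figure D5:**
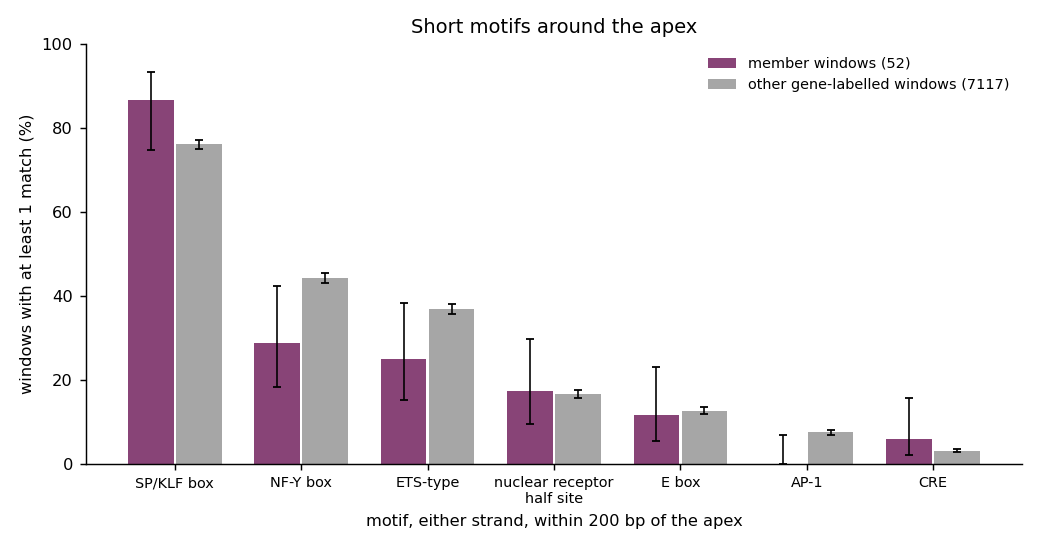
Share of windows with at least 1 match to each of 7 short motifs (vertical axis, percent) within 200 bp of the apex, for the 52 member windows and the other 7117 gene-labelled windows. Bars are shares and lines Wilson 95% intervals; the hexamer of nuclear receptors is at 17.3% and 16.6%, and the NF-Y box at 28.8% and 44.3%.

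The 9 member peaks with the hexamer ranged in height from 16 to 62. They were USP3 (62), USP48 (47), OTUD5 (46), USP34 (32), UBE2R2 (31), a USP45 peak (28), UBE2M (26), UBE2J1 (24) and a UBE2Q2P1 peak (16). As the sequences above show, it lay inside the printed windows of USP3, UBE2R2, UBE2M and UBE2J1, and in OTUD5 and USP48 it was about 82 and 114 bp upstream of the apex. Of the 4 members at or above 50, UBE2G1, USP32 and USP37 had no AGGTCA within 200 bp of the apex. UBE2Q1 held 3 CACGTG motifs, and TGACGTCA was found at UBE2S, USP11 and USP48.

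Away from the promoter, peaks without a label lay inside 5 of the 46 protein-coding member genes (10.9%), against 20.1% of all labelled protein-coding genes, with 6 such peaks in all. They were in UBE2V1 (2 peaks, heights 18 and 23), UBE2D2 (19), USP32 (16), USP48 (33) and OTUD5 (27). Outside the labelled genes, USP10 had 2 peaks in intron 1, of heights 24 and 30, and USP20 had a peak of height 49 in intron 8.

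Other genes of the pathway were read from lists of 55 genes outside the 3 families. Of these 25 had a labelled peak (45.5%, against 30% of all protein-coding genes) and 31 an apex within 1 kb (56.4% against 39.3%), with 27 labelled peaks of median height 27 and median width 1087 bp. The E1 enzymes had 2 of 8, with 22 at SAE1 the highest and a UBA1 peak of height 19 the widest at 1200 bp. E2 enzymes and E2-like proteins with other names had 5 of 8, led by the E2-like AKTIP at 66, and CDC34 had the widest peak at 2864 bp. The other OTU proteases had 4 of 7, with VCPIP1 at 69 the highest and OTUB1 the widest at 2078 bp. The UCH group had 2 of 4, with BAP1 at 36 (2069 bp), and the MJD group 2 of 4, with ATXN3 at 37 (1027 bp). The JAMM group, not all of them active proteases, had 5 of 12, with PRPF8 at 35 and STAMBPL1 the widest at 1296 bp. The MINDY group had 1 of 5, MINDY2, at 52 (1585 bp), and USP-like enzymes with other names had 2 of 3, with CYLD, a regulator of NF-κB signalling, at 50 (1094 bp). As with the 3 families, some starts had a peak without their label, among them NAE1 (66, no label), USPL1 (51, label HMGB1) and TNFAIP3 (47, label WAKMAR2).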

How the data were processed

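Cut&Run libraries of U937-PR9 cells were processed by the authors. Reads were trimmed with Trimmomatic, mapped to hg19 with Bowtie2, cleared of duplicates with Samtools and of blacklisted regions with Bedtools, and passed to SEACR with the norm union threshold and the paired controls as background. Peaks that recurred in the 2 replicates at an irreproducible discovery rate under 0.05 were kept. Tool versions were not given in the sources used here. The authors deposited for each peak a total signal, a maximum signal in the score column (height here), a width and, for 7169 peaks, the gene whose hg19 promoter held the apex. The column of total signal bears the name of a summit. In all 15412 peaks its value was below height times width, and its lowest value, 805, was above the largest height, 87. It was therefore read as a sum, which is an inference. The normalization of the signal and the read depth are unknown, and how reads falling in repeated sequence were treated is not given in the sources used here.

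Each apex was taken as the midpoint of the deposited stretch of largest signal. Its end was missing for 34 peaks, none of them members. Start sites came from GENCODE release 44 on GRCh37, in which 170 labelled gene symbols were not found. Their 187 peaks were left out of the comparison of positions. Motifs, GC and CpG were read within 200 bp of the apex. Medians, shares and their 95% intervals (order statistics and Wilson) were computed with Python 3.11.15, numpy 2.4.6, pandas 2.3.3, scipy 1.17.1, pysam 0.24.0 and samtools 1.23.1, and figures with matplotlib 3.10.9. Intervals cover the counting of peaks or genes only, and neighbouring genes and paralogs are not independent. The functions were tested on simulated data. With 1 value per peak, no test between conditions or p-value was computed. Any member could be named, but the values of some genes are not reported here. The highest, widest and lowest of each family, genes with several peaks, role lists and genes of the families without a label were described, and other pathway lists by their counts with the highest and widest of each. The members and lists were chosen with earlier results of these data known. The alternatives tried were other rules for a promoter peak, other measures of height, merged neighbours, other comparison peaks and other windows.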

Additional observations from a re-analysis of the deposited data

How the results depend on the processing

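No paired analysis was possible because each peak has a single deposited value, from 1 replicate or from both merged, and for the same reason neither replicate could be left out. Of 105 alternatives over 18 results, 91 stayed within the interval of the value reported (for counts, within 1.5 times it). Among peaks no lower than the list's median height, 31 member peaks at 30 genes remained and the share of family genes fell to 31.6%, against 17.5% of all protein-coding genes. At or above the median width the share was 36.8% against 22.4%, and with an apex within 3 kb of an own start it was 60% against 42.1%, so the families' share was the higher under each of these rules. The ratio of the members' median height to that of the other labelled peaks was 1.04, ranged from 1.00 to 1.22 over 11 alternatives, and was highest for total signal in place of height (1.22). The ratio of median widths was 1.05 and lay above 1 in 7 alternatives and below 1 in 2, at 0.956 by mean log2 and 0.933 within classes of height. Motif shares rose with the window, the AGGTCA hexamer from 17.3% to 46.2% in whole peaks, where the other labelled peaks had 42.2%. In whole peaks CCAAT stood at 51.9% against 67.7%, and within 100 bp of the apex at 21.2% against 33.5%. TGANTCA was found in 11.5% of whole member peaks (5.40 to 23.0%) against 18.4%, and in 0 member windows within 100 bp against 4.76%. The share of the other peaks thus lay outside the members' interval for CCAAT within 200 bp and in whole peaks but not within 100 bp, and for TGANTCA within 200 bp only. The cause of these changes was not tested. Depth and background could not be examined without read counts.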
